A study of Homo sapiens with 12 samples.

Results

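The 39 genes described here encode histone lysine methyltransferases (24 genes) and histone lysine demethylases (15 genes). They were chosen by gene symbol and not by a measured value, but with earlier results of these data known. The probe table of the array covers 18665 symbols, with 33 of these genes among them. Their mRNA was measured on 12 Illumina arrays of U2OS, a human osteosarcoma cell line, in 6 groups of 2 biological replicates. They are named siSMRT+CDDP and siSMRT+vehicle, then siNCoR+CDDP and siNCoR+vehicle, and last siCtl+CDDP and siCtl+vehicle. All cells were transfected with siRNA, against the co-repressor SMRT (siSMRT), against the co-repressor NCoR (siNCoR) or with a control sequence (siCtl). CDDP is cisplatin, a drug that crosslinks DNA, added at 100 µM for 6 h, 2 days after transfection; the vehicle groups are labelled as without treatment. The comparisons address how CDDP changed the mRNAs of these enzymes and whether the co-repressors affected the enzymes or their response to the drug. The knock-down was not checked on these arrays, and a transient siRNA lowers its target without removing it.

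Histone lysine methyltransferases transfer methyl groups from S-adenosylmethionine to lysines of histone tails, and demethylases remove them, either by flavin-dependent oxidation (the LSD1 family) or through an iron- and oxoglutarate-dependent JmjC domain. Methylation of H3K4 is typical of active promoters and enhancers, and that of H3K36 of transcribed gene bodies. Methylation of H3K9 and H3K27 is mostly found in silent or compacted chromatin. SMRT and NCoR carry histone deacetylase activity to repressed genes, where several of these enzymes also work.

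Of the 39 genes, 22 were tested. Another 11 (DOT1L, EHMT1, KDM4B, KDM4C, KDM5C, KDM6B, KMT2A, KMT2D, NSD1, PHF8 and SUV39H2), read by 15 probes, did not pass the signal floor of 100 in both arrays of any group and have no level here. No probe is named for the remaining 6 (SETD1B, SETD2, ASH1L, KDM5A, KDM2A and KDM7A), which were not analysed. Levels are log2 signals after background correction and quantile normalization, for the brightest probe of each gene. They can be compared between arrays but not between genes. A gene is called when the limma test across 9808 genes gave a Benjamini-Hochberg adjusted p under 0.05, and SE is the standard error of a log2 difference.

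Raw array medians ran from 54 to 65.3, and replicate arrays correlated at 0.994 to 0.996. Of 10 osteoblast and mesenchymal markers 6 passed the floor (VIM, COL1A1, SPARC, SPP1, ALPL and RUNX2), while COL1A2, IBSP, BGLAP and SP7 did not. Of 6 epithelial markers EPCAM alone passed it, as did CD68 alone of 4 blood markers with a probe.

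By the brightest probe of each gene, KDM6A and SETDB1 had the largest decreases with CDDP in siCtl cells and KDM3A the largest increase. The annotated promoters of these 3 genes are therefore shown. Each is 300 bases of RefSeq sequence (GRCh38.p14, plus strand, 5′ to 3′), with 250 bases before the transcription start and 50 after it. The windows are chrX:44872938-44873237 for KDM6A, chr1:150926013-150926312 for SETDB1 and chr2:86441121-86441420 for KDM3A. Capitals mark the AP-1 motif TGANTCA, the CCAAT box and the E-box CACGTG on either strand, so a CCAAT box on the minus strand reads ATTGG.
KDM6A: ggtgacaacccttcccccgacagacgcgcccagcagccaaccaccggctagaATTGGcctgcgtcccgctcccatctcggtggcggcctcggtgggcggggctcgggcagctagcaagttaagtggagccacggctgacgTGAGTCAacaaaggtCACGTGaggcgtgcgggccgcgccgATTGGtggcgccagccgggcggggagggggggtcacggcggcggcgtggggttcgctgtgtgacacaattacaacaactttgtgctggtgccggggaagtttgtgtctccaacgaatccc
SETDB1: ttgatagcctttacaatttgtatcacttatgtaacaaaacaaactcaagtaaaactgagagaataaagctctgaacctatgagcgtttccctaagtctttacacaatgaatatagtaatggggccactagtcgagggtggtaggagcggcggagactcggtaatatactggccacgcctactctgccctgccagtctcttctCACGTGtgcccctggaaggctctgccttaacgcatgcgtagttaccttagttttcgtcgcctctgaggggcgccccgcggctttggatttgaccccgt
KDM3A: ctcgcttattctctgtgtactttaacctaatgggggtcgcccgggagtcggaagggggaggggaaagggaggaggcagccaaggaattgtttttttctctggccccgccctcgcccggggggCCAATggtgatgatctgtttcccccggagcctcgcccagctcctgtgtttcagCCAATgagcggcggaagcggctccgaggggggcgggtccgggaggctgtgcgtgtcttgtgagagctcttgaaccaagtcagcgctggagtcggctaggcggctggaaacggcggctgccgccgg
The AP-1 motif of KDM6A starts at -110 from the transcription start, its E-box at -95, and its CCAAT boxes at -198 and -70. The E-box of SETDB1 starts at -48, and the CCAAT boxes of KDM3A start at -128 and -75. For KDM3A the transcription start used lies inside the annotated gene, which begins upstream at chr2:86437044. Promoter sequence was found for 21 of the 22 genes tested. An AP-1 motif was present in 1 of these 21 (KDM6A), against 7.76% of 27305 RefSeq promoters of the same length. An E-box was present in 3 of 21 (KDM6A, SETDB1 and EHMT2), against 7.43%, and a CCAAT box in 9 of 21, against 35.7%. These matches are a description of the sequence and not evidence of binding.

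CDDP lowered more of these enzymes than it raised. In siSMRT cells 10 of 22 were called lower and 2 higher with CDDP, in siNCoR cells 9 were called lower and 0 higher, and in siCtl cells 9 were called lower and 3 higher. Among all genes tested, 21.6% were called lower and 21.3% higher in siSMRT cells, 21.1% and 19.6% in siNCoR cells, and 19.4% and 18.2% in siCtl cells (42.9%, 40.7% and 37.6% in either direction). The median log2 difference of the 22 genes was -0.16 with siSMRT, -0.26 with siNCoR and -0.19 with siCtl, beside 0.03 over all genes tested in each. KDM6A, SETDB1, KDM5B, KMT2E, SETD3 and KMT5B were called lower under all 3 siRNAs, and 13 genes under at least 1 of them. EHMT2, KDM3A and KMT2B were called higher under at least 1 siRNA, and none under all 3. KDM1A, KDM3B, KMT2C, NSD2, SETD7 and SMYD2 were called under none. Of the cell type markers, RUNX2 was called lower and SPARC and CD68 higher with CDDP under each siRNA, with CD68 differing by 0.32 with siSMRT, 0.48 with siNCoR and 0.42 with siCtl. The summed signal of the blood markers was 846 to 858 in siSMRT+CDDP cells, against 703 to 727 in siSMRT+vehicle cells, 753 to 852 in siNCoR+CDDP cells, against 594 to 673 in siNCoR+vehicle cells, and 802 to 814 in siCtl+CDDP cells, against 629 to 672 in siCtl+vehicle cells. EPCAM was called higher with CDDP in siNCoR cells (0.46, adjusted p 0.00465), where the epithelial markers summed to 1095 to 1145 with CDDP, against 840 to 933 with vehicle. PTPRC, CD3E and HBB were below the floor, and the part of these changes in the results was not tested.

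**Figure D1:**
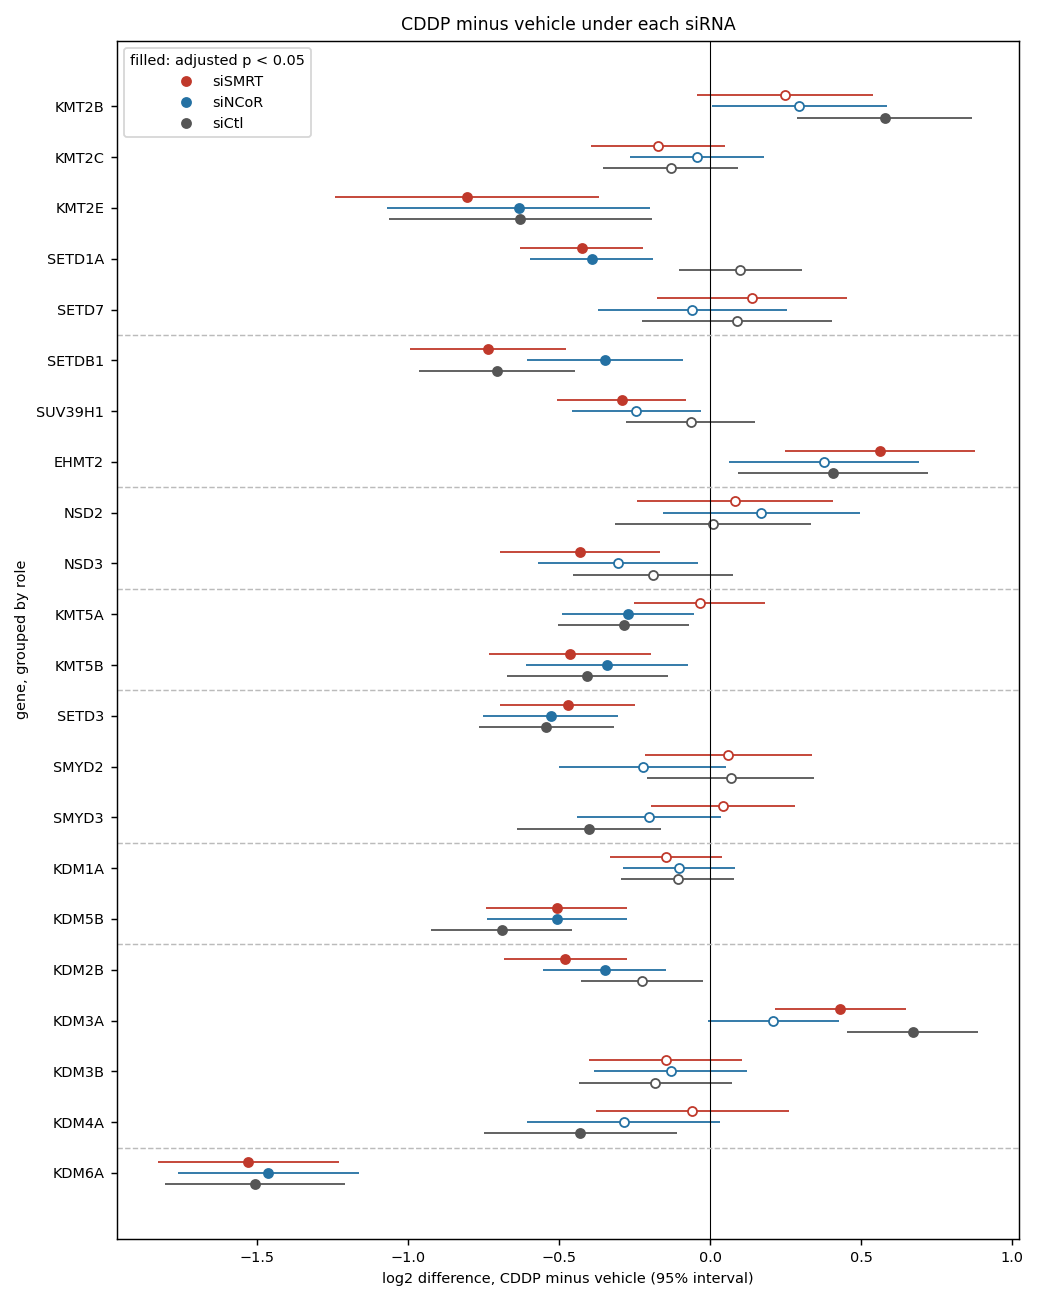
Log2 difference between CDDP and vehicle for the 22 genes tested, grouped by enzymatic role, with 95% confidence intervals; red, siSMRT; blue, siNCoR; grey, siCtl; filled points were called. KDM6A lies between -1.53 and -1.46 under all 3 siRNAs, and no other gene falls below -0.81.

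KDM6A (also called UTX), which removes methyl groups from H3K27, had the strongest change. Its levels were 5.89 and 5.65 in siSMRT+CDDP cells, against 7.49 and 7.10 in siSMRT+vehicle cells. In siNCoR cells they were 5.69 and 5.63 with CDDP, against 7.23 and 7.02 with vehicle. In siCtl cells they were 5.83 and 5.64 with CDDP, against 7.28 and 7.21 with vehicle. All 6 CDDP arrays were lower than all 6 vehicle arrays, with no overlap, and the pairs under the 3 siRNAs lay close together. The log2 differences were -1.53 with siSMRT, -1.46 with siNCoR and -1.51 with siCtl (SE 0.14 each, adjusted p 5.99e-06, 8.26e-06 and 6.83e-06). With CDDP the uncorrected signal of the probe, 72.1 to 81.8, was below the floor of 100 on all 6 arrays, so these fitted differences are not measured sizes. Set against the floor, KDM6A was at least 2.03-fold lower in siSMRT, at least 1.80-fold lower in siNCoR and at least 1.96-fold lower in siCtl cells. The call was made under every alternative and with each array left out. KDM6B, the second H3K27 demethylase in the list, was below the floor.

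Among the H3K4 demethylases, KDM5B (JARID1B), which removes tri- and dimethylation, fell under all 3 siRNAs. It measured 8.45 and 8.38 in siSMRT+CDDP cells, against 8.96 and 8.88 in siSMRT+vehicle cells. The values were 8.83 and 8.56 with CDDP, against 9.27 and 9.13 with vehicle, in siNCoR cells, and 8.72 and 8.75 with CDDP, against 9.48 and 9.37 with vehicle, in siCtl cells. Both CDDP arrays were below both vehicle arrays within each siRNA, and the siSMRT arrays were the lowest in either treatment. The log2 differences were -0.51, -0.51 and -0.69 in siSMRT, siNCoR and siCtl cells (SE 0.11 each, adjusted p 0.00252, 0.00272 and 0.000343), and they were called with each array left out. KDM1A (LSD1), which removes mono- and dimethylation of H3K4, differed by -0.15, -0.10 and -0.11 in the same order, and the 95% interval in siCtl cells ran from -0.29 to 0.08.

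The H3K9 and H3K36 demethylases did not move in one direction. KDM3A (JMJD1A), which acts on mono- and dimethylated H3K9 and is known as a hypoxia-inducible gene, measured 8.20 and 8.08 in siSMRT+CDDP cells, against 7.68 and 7.74 in siSMRT+vehicle cells. In siNCoR cells it was 7.85 and 7.85 with CDDP, against 7.61 and 7.66 with vehicle, and in siCtl cells 8.25 and 8.01 with CDDP, against 7.48 and 7.45 with vehicle. The CDDP arrays were higher than the vehicle arrays under each siRNA, and the gap was smallest in siNCoR cells. KDM3A rose by 0.43 in siSMRT (adjusted p 0.00450) and by 0.67 in siCtl cells (SE 0.10 each, adjusted p 0.000262). In siNCoR cells the difference was 0.21 (adjusted p 0.112). In siSMRT cells the call was lost when arrays were scaled to their medians (0.34, adjusted p 0.0858).

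KDM4A (JMJD2A), which acts on trimethylated H3K9 and H3K36, was called lower in siCtl cells. There it measured 6.15 and 6.00 with CDDP, against 6.49 and 6.52 with vehicle, a difference of -0.43 (SE 0.15, adjusted p 0.0365). The siSMRT+CDDP arrays gave 6.29 and 6.34, against 6.12 and 6.63 in siSMRT+vehicle cells, and the groups overlapped. The siNCoR+CDDP arrays gave 5.86 and 5.99, against 6.09 and 6.33 in siNCoR+vehicle cells (-0.29, adjusted p 0.139), which was called with median scaling (-0.43, adjusted p 0.0338). Its signal was close to the floor: with CDDP in siCtl cells both arrays were below it, so that it was at least 1.17-fold lower than with vehicle. The call was lost without any 1 of the 4 siCtl arrays (adjusted p 0.0611 to 0.174). KDM2B, an H3K36 demethylase that is also part of a variant Polycomb complex, fell by 0.48 in siSMRT (SE 0.09, adjusted p 0.00156) and by 0.35 in siNCoR cells (adjusted p 0.0107). In siCtl cells its difference was -0.23 (adjusted p 0.0765). The siNCoR call was lost without siNCoR+vehicle replicate 1 (adjusted p 0.067) or siNCoR+CDDP replicate 2 (adjusted p 0.103). KDM3B differed by -0.15, -0.13 and -0.18 in siSMRT, siNCoR and siCtl cells and was not called.

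Of the 3 H3K9 methyltransferases tested, SETDB1 was called lower under all 3 siRNAs. SETDB1 trimethylates H3K9, among other places at silenced retroelements, together with TRIM28. It measured 6.88 and 6.90 in siSMRT+CDDP cells, against 7.73 and 7.52 in siSMRT+vehicle cells. In siNCoR cells it was 7.02 and 7.03 with CDDP, against 7.47 and 7.27 with vehicle, and in siCtl cells 6.54 and 6.84 with CDDP, against 7.42 and 7.37 with vehicle. Every CDDP array was below every vehicle array. SETDB1 fell by 0.74 with siSMRT, 0.35 with siNCoR and 0.71 with siCtl (SE 0.12 each, adjusted p 0.000441, 0.0336 and 0.000623). The siNCoR call was lost without siNCoR+vehicle replicate 1 (-0.25, adjusted p 0.215), siNCoR+CDDP replicate 1 (adjusted p 0.0965) or siNCoR+CDDP replicate 2 (adjusted p 0.0994).

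EHMT2 (G9a), which mono- and dimethylates H3K9, was higher with CDDP. Its levels were 7.14 and 7.03 in siSMRT+CDDP cells, against 6.36 and 6.68 in siSMRT+vehicle cells. They were 6.80 and 6.92 with CDDP, against 6.26 and 6.71 with vehicle, in siNCoR cells, and 7.09 and 7.18 with CDDP, against 6.68 and 6.77 with vehicle, in siCtl cells. The CDDP arrays were above the vehicle arrays within each siRNA, with the widest spread among the vehicle arrays of the knock-down cells. The differences were 0.56 in siSMRT (SE 0.14, adjusted p 0.00830), 0.38 in siNCoR (adjusted p 0.0554) and 0.41 in siCtl cells (adjusted p 0.0436). When same-numbered arrays were blocked (the replicate block), the siNCoR difference was called as well (adjusted p 0.0178). Without siNCoR+vehicle replicate 2 it was 0.60, with 1 vehicle array left, just under the floor (uncorrected signal 99.2). The siCtl call was the least stable of the 12: it was lost with median scaling (0.23, adjusted p 0.327), with the authors' processed values (0.31, adjusted p 0.0637) and without any 1 of the 4 siCtl arrays (adjusted p 0.0886 to 0.175) or either siSMRT+CDDP array (adjusted p 0.0545 and 0.0547). The siSMRT call was lost without siSMRT+vehicle replicate 1 (adjusted p 0.0908) or siSMRT+CDDP replicate 1 (adjusted p 0.0534). SUV39H1, the trimethylase of pericentromeric heterochromatin, fell by 0.29 in siSMRT cells (adjusted p 0.0301) and differed by -0.24 in siNCoR and -0.06 in siCtl cells. Its siSMRT call was lost without any 1 of the 4 siSMRT arrays (adjusted p 0.0579 to 0.149) and with median scaling (-0.14, adjusted p 0.486).

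The H3K4 methyltransferases went in both directions. KMT2E (MLL5), a family member with little or no activity on histones, was called lower under all 3 siRNAs. It measured 8.22 and 7.91 in siSMRT+CDDP cells, against 9.003 and 8.73 in siSMRT+vehicle cells. The levels were 8.10 and 7.89 with CDDP, against 8.88 and 8.39 with vehicle, in siNCoR cells, and 8.42 and 8.43 with CDDP, against 9.35 and 8.76 with vehicle, in siCtl cells. The groups did not overlap under any siRNA, but the vehicle replicates lay far apart in siNCoR and siCtl cells. The differences were -0.81, -0.63 and -0.63 in siSMRT, siNCoR and siCtl cells (SE 0.20 each, adjusted p 0.0069, 0.0245 and 0.0266). Without siCtl+vehicle replicate 1 the siCtl value was -0.33 (adjusted p 0.258), and without siNCoR+vehicle replicate 1 the siNCoR value was -0.39 (adjusted p 0.212). The calls were also lost without either siCtl+CDDP array (adjusted p 0.0904 and 0.0914), siNCoR+CDDP replicate 2 (0.137), siSMRT+vehicle replicate 1 (0.0651) and siSMRT+CDDP replicate 2 (0.0661).

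KMT2B (MLL2 or MLL4 in older names), which trimethylates H3K4 at promoters, was called higher in siCtl cells. It measured 7.40 and 7.66 in siCtl+CDDP cells, against 6.91 and 7.00 in siCtl+vehicle cells, with no overlap. The siSMRT+CDDP arrays gave 7.46 and 7.53, against 7.07 and 7.41 in siSMRT+vehicle cells, and the siNCoR+CDDP arrays 7.26 and 7.49, against 7.00 and 7.16 in siNCoR+vehicle cells. The CDDP arrays were thus the higher ones under each siRNA. The differences were 0.25 in siSMRT (adjusted p 0.150), 0.30 in siNCoR (adjusted p 0.0962) and 0.58 in siCtl cells (SE 0.13, adjusted p 0.00492). With the replicate block the first 2 were called (adjusted p 0.0379 and 0.0178). The siSMRT difference was 0.42 without siSMRT+vehicle replicate 2 (adjusted p 0.0469), and without siCtl+CDDP replicate 2 the siCtl difference was not called (0.45, adjusted p 0.0528).

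SETD1A, the catalytic subunit of a SET1 complex, was called lower with CDDP in both knock-downs. Its levels were 7.64 and 7.54 in siSMRT+CDDP cells, against 8.01 and 8.01 in siSMRT+vehicle cells, and 7.45 and 7.49 in siNCoR+CDDP cells, against 7.93 and 7.79 in siNCoR+vehicle cells. In siCtl cells they were 7.85 and 7.85 with CDDP, against 7.83 and 7.68 with vehicle. The groups were apart in the knock-down cells and nearly touched in siCtl cells. The differences were -0.42 in siSMRT (SE 0.09, adjusted p 0.00342), -0.39 in siNCoR (adjusted p 0.00569) and 0.10 in siCtl cells (adjusted p 0.429). The siNCoR call was lost without siNCoR+vehicle replicate 1 (adjusted p 0.0558). KMT2C, the catalytic subunit of an enhancer-bound complex, differed by -0.17, -0.04 and -0.13, and SETD7, a monomethyltransferase of H3K4 and of many other proteins, by 0.14, -0.06 and 0.09, in siSMRT, siNCoR and siCtl cells, with no call.

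Among the methyltransferases of H4K20, KMT5B (SUV420H1), which makes the dimethylated form, fell under all 3 siRNAs. It measured 8.99 and 8.78 in siSMRT+CDDP cells, against 9.50 and 9.20 in siSMRT+vehicle cells. In siNCoR cells it was 9.04 and 8.90 with CDDP, against 9.39 and 9.23 with vehicle, and in siCtl cells 9.13 and 8.99 with CDDP, against 9.52 and 9.42 with vehicle. The CDDP arrays were the lower pair in each case. KMT5B fell by 0.46 with siSMRT, 0.34 with siNCoR and 0.41 with siCtl (SE 0.12 each, adjusted p 0.00970, 0.0434 and 0.0212). These calls were lost without siSMRT+vehicle replicate 1 (adjusted p 0.109) or siSMRT+CDDP replicate 2 (0.0931) in siSMRT cells, and without siCtl+vehicle replicate 1 (0.112) or siCtl+CDDP replicate 2 (0.126) in siCtl cells. In siNCoR cells the call was lost without any 1 of the 4 siNCoR arrays (0.0541 to 0.227) or either siCtl+vehicle array (0.0518 and 0.0521).

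KMT5A (SET8), the monomethylase of H4K20, measured 8.46 and 8.42 in siNCoR+CDDP cells, against 8.78 and 8.65 in siNCoR+vehicle cells. In siCtl cells it was 8.69 and 8.79 with CDDP, against 9.06 and 8.98 with vehicle. In siSMRT cells it was 8.73 and 8.54 with CDDP, against 8.73 and 8.62 with vehicle. The CDDP arrays were lower in siNCoR and siCtl cells, and the groups overlapped in siSMRT cells. KMT5A fell by 0.27 in siNCoR (SE 0.10, adjusted p 0.0464) and by 0.29 in siCtl cells (adjusted p 0.0400), and differed by -0.03 in siSMRT cells. Both calls were near the threshold. The siCtl call was lost without any 1 of the 4 siCtl arrays (adjusted p 0.0651 to 0.182), and the siNCoR call without any 1 of 10 arrays, all but those of siSMRT+CDDP (adjusted p 0.0518 to 0.230).

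SETD3, SMYD2 and SMYD3 act mainly on proteins other than histones, SETD3 as the histidine methyltransferase of actin. SETD3 measured 10.67 and 10.47 in siSMRT+CDDP cells, against 11.12 and 10.96 in siSMRT+vehicle cells. It was 10.85 and 10.73 with CDDP, against 11.37 and 11.27 with vehicle, in siNCoR cells, and 10.54 and 10.58 with CDDP, against 11.13 and 11.07 with vehicle, in siCtl cells. All 6 CDDP arrays were below all 6 vehicle arrays. SETD3 fell by 0.47 with siSMRT, 0.53 with siNCoR and 0.54 with siCtl (SE 0.10 each, adjusted p 0.00325, 0.00169 and 0.00146). The siSMRT call was lost with median scaling (-0.37, adjusted p 0.0770).

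SMYD3 was called lower in siCtl cells, with 9.18 and 9.22 in siCtl+CDDP cells, against 9.53 and 9.67 in siCtl+vehicle cells (-0.40, SE 0.11, adjusted p 0.0128). It measured 9.44 and 9.51 in siSMRT+CDDP cells, against 9.37 and 9.50 in siSMRT+vehicle cells, a difference of 0.04. In siNCoR+CDDP cells it measured 9.05 and 9.20, against 9.19 and 9.46 in siNCoR+vehicle cells, a difference of -0.20 that was called with median scaling (-0.40, adjusted p 0.0341). The groups overlapped in both knock-downs. The siCtl call was lost without siCtl+CDDP replicate 1 (adjusted p 0.0632) or siCtl+vehicle replicate 2 (adjusted p 0.0920). SMYD2 differed by 0.06, -0.22 and 0.07 in siSMRT, siNCoR and siCtl cells and was not called.

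Of the H3K36 methyltransferases, NSD3 was called lower in siSMRT cells, with 6.99 and 7.36 in siSMRT+CDDP cells, against 7.69 and 7.52 in siSMRT+vehicle cells (-0.43, SE 0.12, adjusted p 0.0136). The call was lost without siSMRT+vehicle replicate 1 (adjusted p 0.109) or siSMRT+CDDP replicate 1 (adjusted p 0.150). In siNCoR cells the difference was -0.31 (adjusted p 0.0626), called with the replicate block (adjusted p 0.0440) and with median scaling (-0.53, adjusted p 0.0103), and in siCtl cells -0.19 (adjusted p 0.244). NSD2, which makes most dimethylated H3K36 in many cells, differed by 0.08, 0.17 and 0.01, and was not called.

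**Figure D2:**
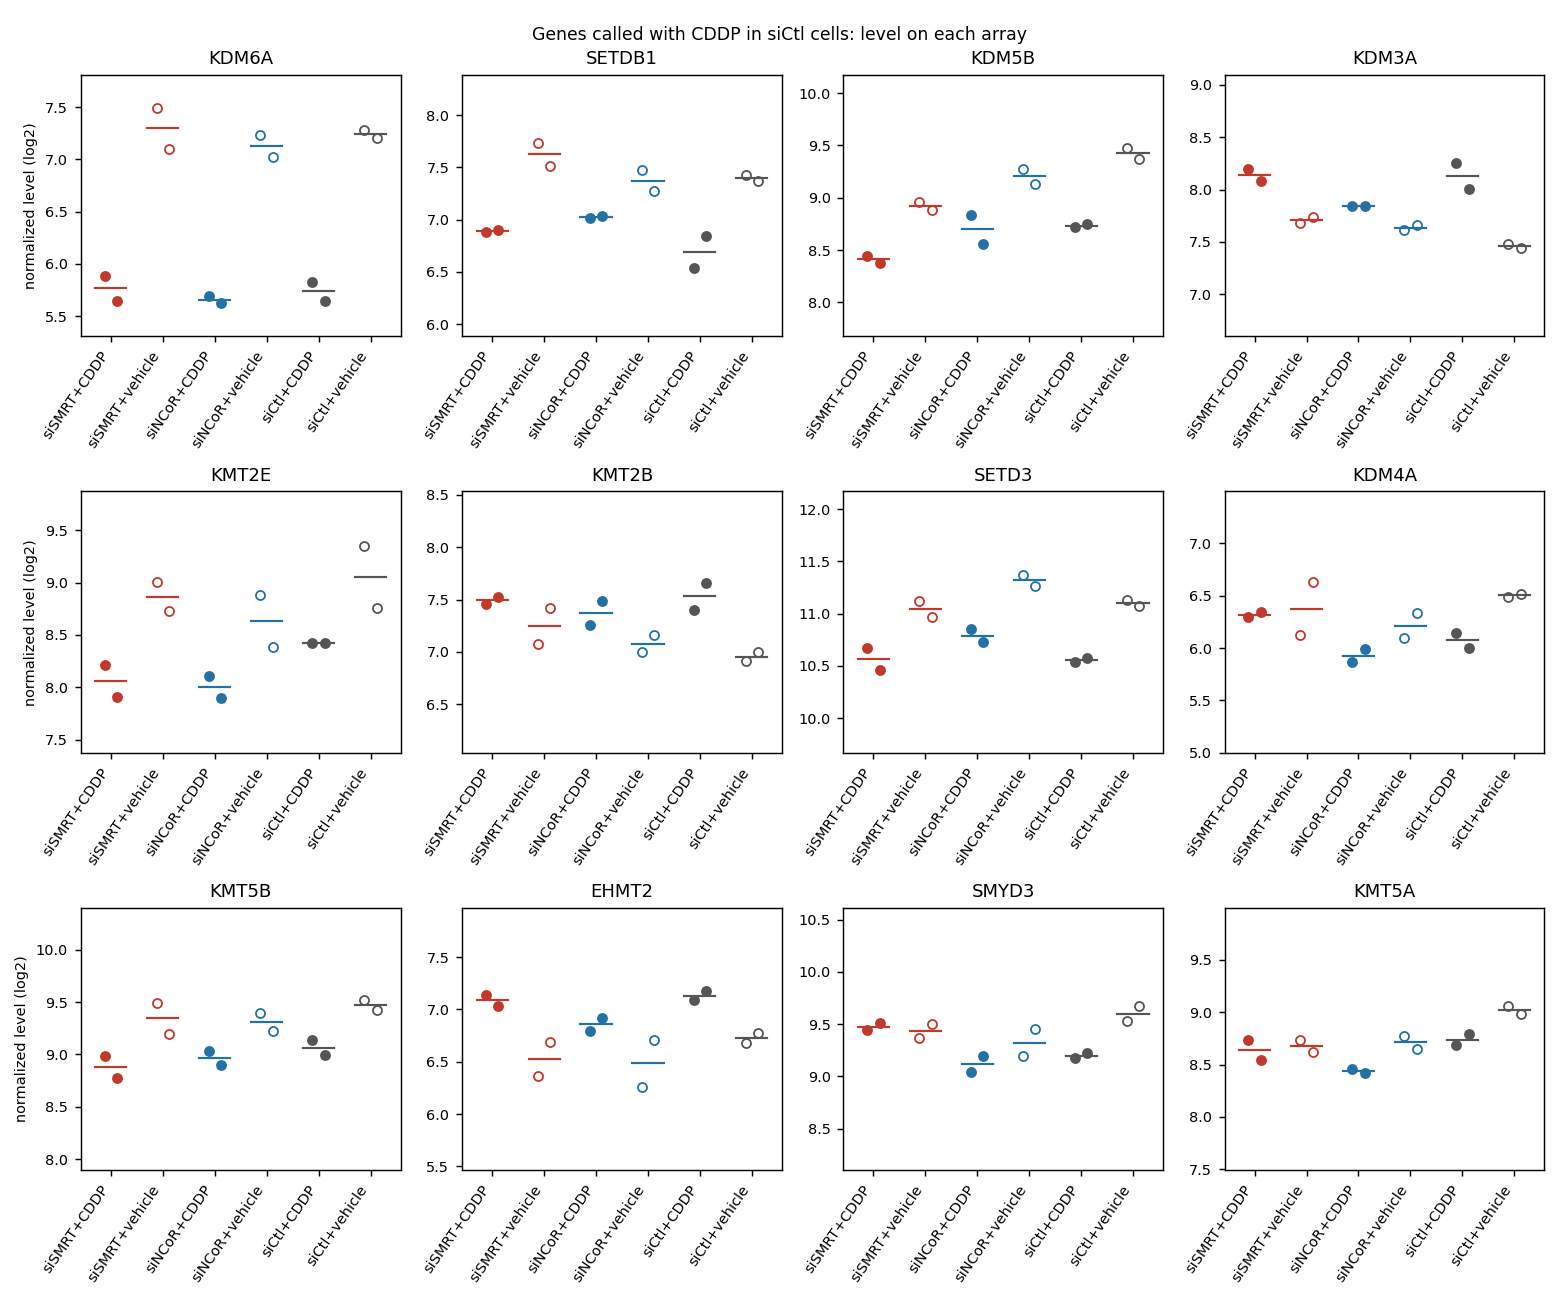
Normalized log2 level on each array for the 12 genes called with CDDP in siCtl cells; red, siSMRT; blue, siNCoR; grey, siCtl; filled points, CDDP; open points, vehicle; lines, group means of 2 arrays. All panels cover the same width in log2 units, each around its own centre. In siCtl cells the CDDP and vehicle arrays do not overlap in any of the 12 panels.

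The calls in siCtl cells that did not depend on any single array were those of KDM6A, SETDB1, KDM5B, SETD3 and KDM3A. The number called lower there was 5 without siCtl+vehicle replicate 1, without siCtl+CDDP replicate 1 and without siCtl+CDDP replicate 2. In siNCoR cells it was 3 without siNCoR+vehicle replicate 1 and 4 without siNCoR+CDDP replicate 2, and in siSMRT cells 6 without siSMRT+vehicle replicate 1. The balance of all calls depended on the scaling. With arrays scaled to their medians, 18.1% of all calls in siNCoR cells and 25.7% in siCtl cells were increases, where quantile normalization gave 48.05% and 48.3%, and the median of all genes was -0.11 with siNCoR and -0.06 with siCtl. With that scaling 8 of the 22 enzymes were called lower and 1 higher in siSMRT cells, 12 and 0 in siNCoR cells, and 9 and 2 in siCtl cells.

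In the list, 4 genes had a pair of probes past the floor, which match different transcript accessions. The probes of NSD3, SETD3 and KMT5B differed in at least 1 call, and those of KMT2E in none. For NSD3 the brightest probe matches NM_023034 and the second NM_017778. The second probe gave 6.51 and 6.10 in siSMRT+CDDP cells, against 6.94 and 7.05 in siSMRT+vehicle cells. It gave 5.84 and 5.66 with CDDP, against 6.72 and 6.87 with vehicle, in siNCoR cells, and 6.20 and 5.89 with CDDP, against 7.10 and 7.07 with vehicle, in siCtl cells. All CDDP arrays were below all vehicle arrays, and the decrease was called under each siRNA when every probe was tested: -0.69 with siSMRT, -1.05 with siNCoR and -1.04 with siCtl (SE 0.14 each, adjusted p 0.00252, 0.000142 and 0.000153). Against the floor it was at least 1.44-fold lower in siNCoR and at least 1.76-fold lower in siCtl cells, since both CDDP arrays were below the floor there. The brightest probe of NSD3 changed by -0.43, -0.31 and -0.19 in the same order. For SETD3 the order was the reverse: the brightest probe (NM_032233) fell as given above, while the second probe (NM_199123) differed by -0.10, -0.12 and -0.04 in siSMRT, siNCoR and siCtl cells and was not called.

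The KMT2E probes matched in direction and call, the second (NM_018682) with -0.71, -0.46 and -0.52 in siSMRT, siNCoR and siCtl cells (adjusted p 0.00576, 0.0476 and 0.0295). The second KMT5B probe (NM_017635) was called in siSMRT cells (-0.50, adjusted p 0.0145) and differed by -0.28 in siNCoR and -0.30 in siCtl cells (adjusted p 0.143 and 0.127). The differences between the probes of a gene were not tested.

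**Figure D3:**
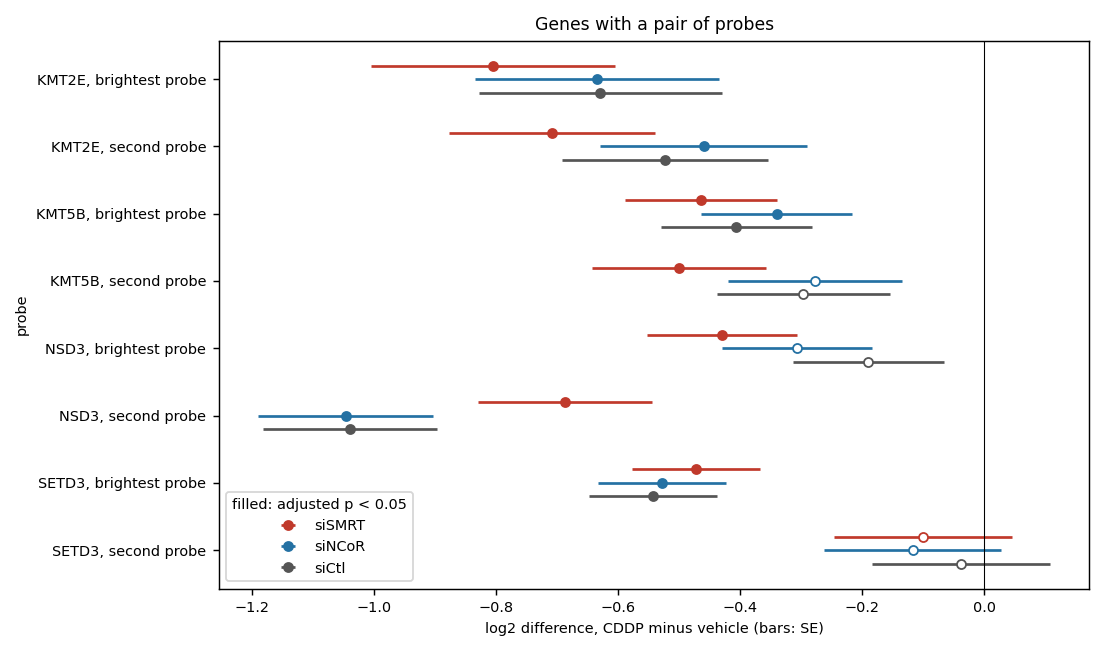
Log2 difference between CDDP and vehicle for both probes of the 4 genes with a pair of probes past the floor, with standard errors; red, siSMRT; blue, siNCoR; grey, siCtl; filled points were called. The second NSD3 probe reaches -1.04 in siCtl cells where the brightest is at -0.19, and the second SETD3 probe stays between -0.12 and -0.04.

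As a set the enzymes tested were long genes, and by the median those called lower were little longer than those not called. The annotated length (RefSeq, GRCh38.p14) had a median of 63.7 kb over the 22 genes tested, against 29.0 kb over all genes tested. In siCtl cells it was 83.9 kb for the 9 genes called lower (25.2 to 757.9 kb), 20.9 kb for the 3 called higher (17.9 to 55.7 kb) and 74.3 kb for the 10 not called (13.5 to 301.1 kb). KDM6A spans 239.6 kb, SMYD3 757.9 kb and KMT2E 100.8 kb, while EHMT2 spans 17.9 kb and KMT2B 20.9 kb. KMT2C, with 301.1 kb, was not called (-0.13), while KMT5A, with 25.2 kb, and SETDB1, with 38.5 kb, were called lower. For KMT2C 1 of 4 probes passed the floor, and the others were not tested. Of those others, 1 read lower with CDDP under each siRNA without overlap, and the rest overlapped in siCtl cells. Across the 22 genes Spearman's rho between length and the CDDP difference was -0.37 with siSMRT, -0.24 with siNCoR and -0.41 with siCtl. Across 9801 genes tested it was -0.48, -0.52 and -0.50 in the same order. Genes on the same arrays are not independent, and the part of length in these changes was not tested.

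**Figure D4:**
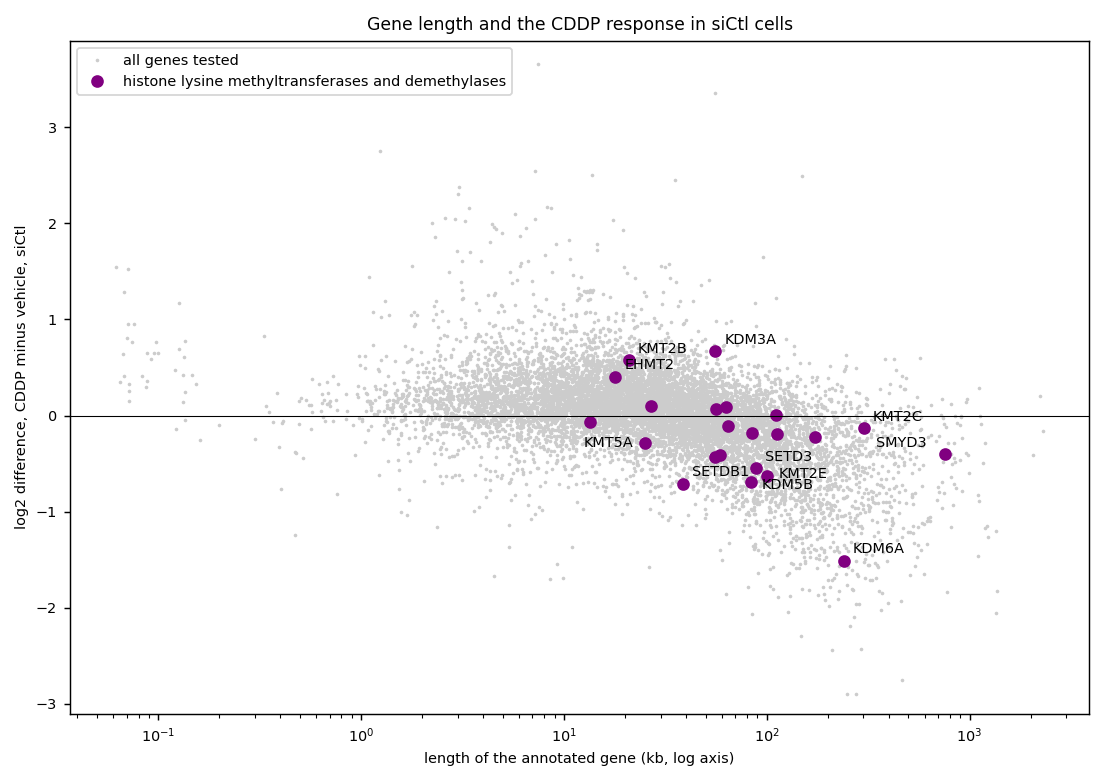
Log2 difference between CDDP and vehicle in siCtl cells against annotated gene length in kb (log axis); purple, the 22 histone lysine methyltransferases and demethylases; grey, all genes tested. Longer genes tend to lie lower in both sets, with KDM6A at 239.6 kb and -1.51.

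Fewer of these genes responded to the siRNAs than to CDDP. In vehicle, siSMRT cells differed from siCtl cells in 4 of 22 genes, 2 lower and 2 higher, where 8.53% of all genes tested were called lower and 7.26% higher (15.8% in all). With CDDP, 0 were called lower and SETD7 alone was called higher, where the shares over all genes were 9.39% and 7.88% (17.3% in all). Against siCtl, siNCoR cells had 0 calls in vehicle (2.29% lower and 2.97% higher over all genes, 5.26% in all), with 4 genes at an unadjusted p under 0.05. With CDDP, siNCoR cells had 2 lower and 0 higher (3.1% and 3.5%, 6.6% in all). Each siRNA was compared with the same siCtl arrays.

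SETD7 was the gene called with siSMRT in both treatments. It measured 7.54 and 7.28 in siSMRT+vehicle cells, against 6.73 and 6.98 in siCtl+vehicle cells, and 7.41 and 7.69 in siSMRT+CDDP cells, against 6.84 and 7.04 in siCtl+CDDP cells. The siSMRT arrays were the higher ones with either treatment. In siNCoR cells it was 7.04 and 6.95 with CDDP and 7.20 and 6.91 with vehicle, and overlapped with siCtl in both. SETD7 was higher in siSMRT cells by 0.61 with CDDP (SE 0.14, adjusted p 0.0147) and by 0.56 with vehicle (adjusted p 0.0232). The CDDP call was lost without siCtl+CDDP replicate 1 (adjusted p 0.101) or siSMRT+CDDP replicate 2 (adjusted p 0.119), and the vehicle call without siCtl+vehicle replicate 1 (0.170) or siSMRT+vehicle replicate 1 (0.174) and with median scaling (0.0822).

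KDM5B was lower in siSMRT+vehicle cells (8.96 and 8.88) than in siCtl+vehicle cells (9.48 and 9.37), by -0.50 (SE 0.11, adjusted p 0.00876). With CDDP the difference was -0.32 (adjusted p 0.0583), which was called with the replicate block (adjusted p 0.0210). In siNCoR cells KDM5B differed from siCtl by -0.22 with vehicle and -0.04 with CDDP. KMT5A measured 8.73 and 8.62 in siSMRT+vehicle cells, against 9.06 and 8.98 in siCtl+vehicle cells (-0.35, SE 0.10, adjusted p 0.0336). It was lower in siNCoR+vehicle cells by a similar amount that was not called (-0.31, 95% interval -0.53 to -0.09, adjusted p 0.103), nor was the -0.30 with CDDP (adjusted p 0.105). With the replicate block both were called (adjusted p 0.0477 and 0.04998).

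NSD3, by its brightest probe, measured 7.69 and 7.52 in siSMRT+vehicle cells, against 7.06 and 7.05 in siCtl+vehicle cells (0.55, SE 0.12, adjusted p 0.0116). The second probe differed by -0.09 (adjusted p 0.718). With CDDP the brightest probe differed by 0.31, and by 0.49 without siSMRT+CDDP replicate 1 (adjusted p 0.0385). All 4 calls in vehicle were lost without siCtl+vehicle replicate 1: KDM5B had an adjusted p of 0.0749, KMT5A 0.175, NSD3 0.0636 and SETD7 0.170. Those of KDM5B (0.0640) and KMT5A (0.176) were lost without siSMRT+vehicle replicate 2, and those of NSD3 (0.0973), KMT5A (0.0800) and SETD7 without siSMRT+vehicle replicate 1. Without siCtl+vehicle replicate 2 NSD3 (0.0523) and KMT5A (0.0758) were lost. With median scaling, which set the median of all genes at -0.12 in this comparison, NSD3 and SETD7 were not called (0.0831 and 0.0822), and 14.8% of all calls were increases, where quantile normalization gave 46.0%.

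With siNCoR, the genes called were SMYD2 and SETD1A, both in CDDP-treated cells. SMYD2, which methylates p53 and other proteins, measured 9.06 and 9.05 in siNCoR+CDDP cells, against 9.65 and 9.67 in siCtl+CDDP cells (-0.60, SE 0.13, adjusted p 0.0162). In vehicle it measured 9.12 and 9.44 in siNCoR cells, against 9.46 and 9.72 in siCtl cells (-0.31, adjusted p 0.198). The siSMRT arrays, at 9.78 and 9.80 with CDDP and 9.85 and 9.61 with vehicle, were not called against siCtl. SETD1A was 7.45 and 7.49 in siNCoR+CDDP cells, against 7.85 and 7.85 in siCtl+CDDP cells (-0.38, SE 0.09, adjusted p 0.0314). In siSMRT+CDDP cells it differed from siCtl+CDDP by -0.27 (adjusted p 0.0700), called with the replicate block (0.0393), while in vehicle it differed by 0.26 (adjusted p 0.0828), also called with the block (0.0465). Both siNCoR calls were lost without any 1 of the 4 arrays compared (adjusted p 0.0511 to 0.0855 for SMYD2 and 0.0953 to 0.116 for SETD1A), and that of SETD1A with median scaling (0.0773). With that scaling 36.01% of all calls between siNCoR+CDDP and siCtl+CDDP cells were increases, where quantile normalization gave 53.0%.

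Besides the calls gained with the replicate block that are given above, the block added 5. They were KMT2B (0.29, adjusted p 0.0362) in siSMRT+vehicle cells, KMT2E in siNCoR cells with vehicle (-0.42, adjusted p 0.0453) and with CDDP (-0.43, adjusted p 0.0373), and KMT2E (-0.36, adjusted p 0.0441) and SMYD3 (0.28, adjusted p 0.0323) in siSMRT+CDDP cells. Without the block their adjusted p were 0.166, 0.272, 0.238, 0.233 and 0.102. Within each replicate number KMT2E was lower in siNCoR+vehicle cells (8.88 and 8.39) than in siCtl+vehicle cells (9.35 and 8.76), although the groups overlapped.

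**Figure D5:**
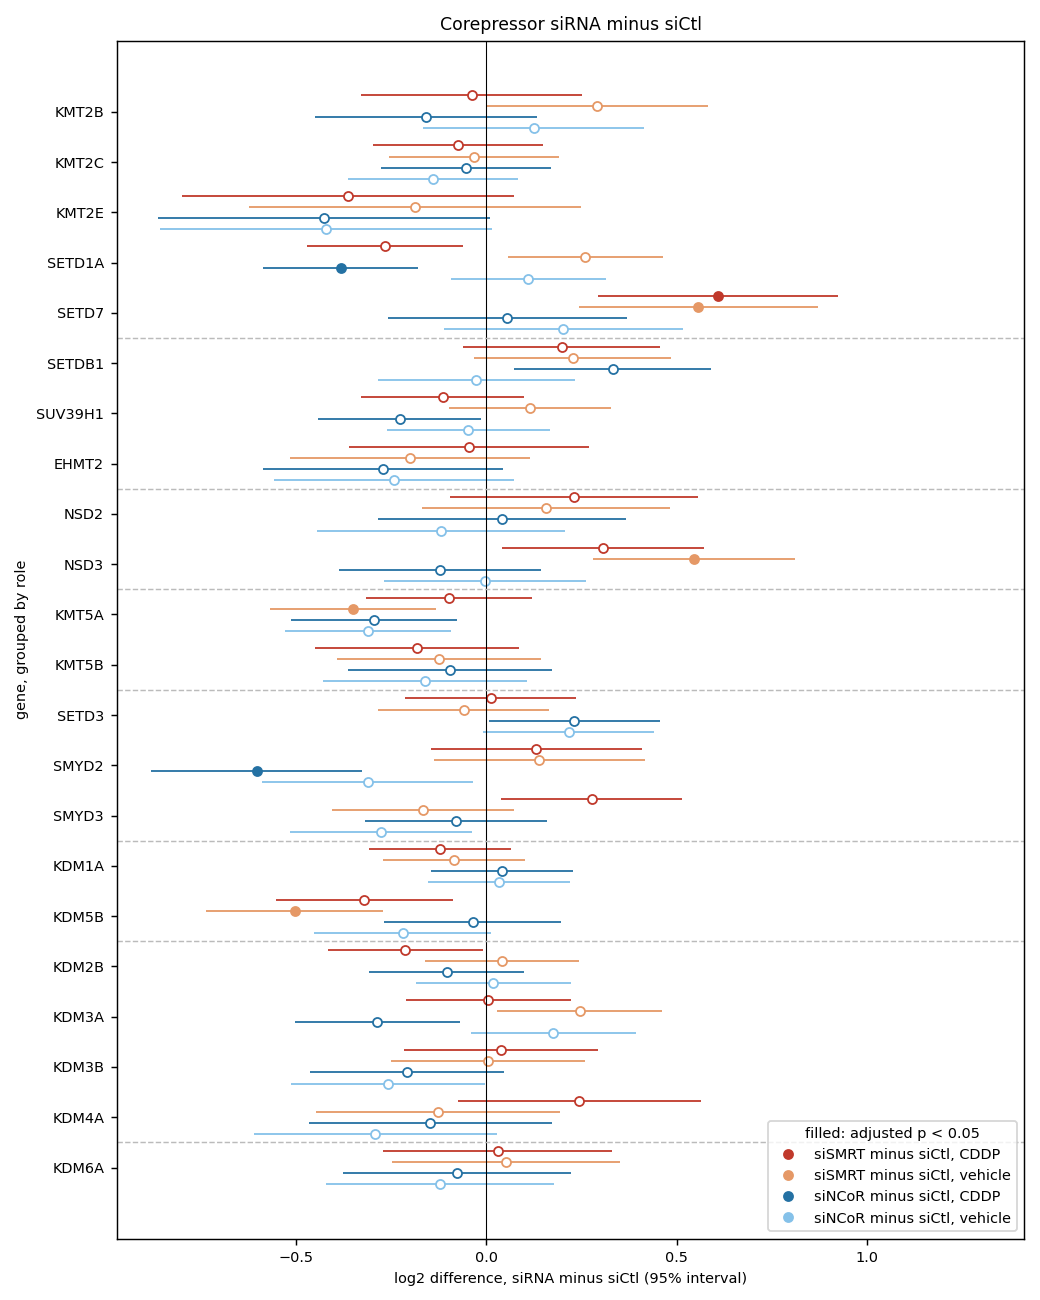
Log2 difference of siSMRT or siNCoR from siCtl for the 22 genes tested, with 95% confidence intervals; red and orange, siSMRT with CDDP and with vehicle; dark and light blue, siNCoR with CDDP and with vehicle; filled points were called. SETD7 is at 0.56 to 0.61 with siSMRT, and SMYD2 at -0.60 with siNCoR and CDDP.

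Among the markers of other cell types, EPCAM moved with the siRNAs, while CD68 was not called in these comparisons. EPCAM was higher than in siCtl cells by 0.62 and 0.61 in siSMRT cells with CDDP and with vehicle, and by 0.88 and 0.65 in siNCoR cells (all called). The summed signal of the 6 epithelial markers was 938 to 1017 in siSMRT+CDDP, 859 to 872 in siSMRT+vehicle, 1095 to 1145 in siNCoR+CDDP and 840 to 933 in siNCoR+vehicle cells, against 720 to 746 in siCtl+CDDP and 646 to 677 in siCtl+vehicle cells. CDH1, KRT5, KRT14, KRT19 and CLDN4 stayed below the floor. Of 6 osteoblast and mesenchymal markers tested, 3 were called lower and 1 higher in siSMRT+vehicle cells. In siNCoR+vehicle cells SPP1 was higher by 1.50 and RUNX2 lower by -0.53. With CDDP, the called differences from siCtl were -0.83 for SPP1 and -0.51 for SPARC in siSMRT cells. In siNCoR cells they were 1.41 for SPP1 and -0.37 for RUNX2. The uncorrected signal of RUNX2 ran from 51.4 to 124.7 over all arrays, near or below the floor, so its differences are not measured sizes. The summed signal of the 10 osteoblast and mesenchymal markers was 25903 to 27521 in siSMRT+vehicle and 27199 to 27227 in siNCoR+vehicle cells, against 27376 to 28500 in siCtl+vehicle cells. VIM alone gave 21770 to 25380 over all arrays, so these sums say little about the other markers. The part of these changes in the results was not tested.

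The CDDP response of these genes did not pass the test for a difference between a knock-down and siCtl in any case. Of 22 differences, 0 were called with siSMRT and 0 with siNCoR by limma, and 2 in each had an unadjusted p under 0.05. Over all genes tested, 0.0102% were called with siSMRT (1 gene) and 0.0% with siNCoR. Median scaling set the median of all genes at 0.13 in the siSMRT difference. SETD1A had the smallest p in both, with a response that differed from siCtl cells by -0.53 with siSMRT (95% interval -0.81 to -0.24, adjusted p 0.283) and by -0.49 with siNCoR (-0.78 to -0.20, adjusted p 0.976). The 2 differences share the siCtl arrays. The SMYD3 response was 0.44 higher in siSMRT than in siCtl cells (0.11 to 0.78, adjusted p 0.451), and that of KDM3A differed in siNCoR cells by -0.46 (-0.77 to -0.16, adjusted p 0.976). For KDM6A the response differed from that in siCtl cells by -0.02 with siSMRT (-0.45 to 0.40) and by 0.04 with siNCoR (-0.38 to 0.47). Its CDDP signals were below the floor under every siRNA, so these values cannot show whether the size of its response differed.

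Across the 22 genes the CDDP differences of the 3 siRNA conditions, which share no arrays, had Pearson correlations of 0.88 between siSMRT and siCtl, 0.90 between siNCoR and siCtl and 0.93 between siSMRT and siNCoR. Over all 9808 genes tested the correlations were 0.89, 0.93 and 0.94. These are across genes, which are not independent replicates. Among the 22 genes KDM6A lay far below the rest, with CDDP signals below the floor, and the correlations without it were not computed.

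Other chromatin regulators, in lists taken by function, had calls in both directions with CDDP in siCtl cells, where 19.4% of all genes tested were called lower and 18.2% higher. Of 9 subunits and partners of Polycomb repressive complex 2, which writes H3K27 methylation, 3 were called lower and 1 higher. JARID2, which brings the complex to its targets, fell by 2.90 (SE 0.10, adjusted p 2.04e-08), AEBP2 by 0.88 and SUZ12 by 0.77. Of 9 acetyltransferases tested, 3 were called lower and 1 higher, with NCOA1 at -1.65, CREBBP at -1.26 and KAT6A at -0.50. Of 8 readers and partners of H3K9 methylation, 2 were called lower and 1 higher: CDYL fell by 1.52 and UHRF1 by 0.35, while TRIM28, the partner of SETDB1, rose by 0.65. The medians of these lists were -0.002, -0.19 and -0.09, beside 0.03 over all genes.

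The same shares over all genes, 19.4% lower and 18.2% higher, stand beside the remaining lists. Among 13 further lysine methyltransferases and demethylases tested of 28 listed, 3 were called lower and 4 higher, with PRDM10 at -1.42, JMJD1C at -1.21 and RIOX1 at 0.64. Of 14 subunits of the KMT2 and SET1 complexes, 2 were called lower (NCOA6 by 0.71 and PAGR1 by 0.48) and 0 higher. Of 6 class I and II deacetylases, 2 were called lower and 1 higher (HDAC9 -0.79, HDAC1 -0.26 and HDAC6 0.35), and of 8 arginine methyltransferases 2 were called lower and 2 higher (PRMT2 0.47, PRMT5 0.36 and PRMT6 -0.35). The medians were 0.10, 0.06, -0.19 and 0.14.

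In vehicle, siSMRT cells differed from siCtl cells in 1 of 9 Polycomb proteins and 3 of 6 deacetylases, where 8.53% of all genes tested were called lower and 7.26% higher. AEBP2 was the gene called among the Polycomb proteins (-0.69, adjusted p 0.00598). Of the 6 deacetylases, HDAC9 was higher by 0.80, and HDAC6 and HDAC1 were lower, by -0.43 and -0.42 (adjusted p 0.0327, 0.00687 and 0.00918). No gene was called among the KMT2 and SET1 subunits, the H3K9 readers, the acetyltransferases, the arginine methyltransferases or the further lysine methyltransferases and demethylases.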

How the data were processed

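Probe intensity of 12 arrays (48803 probes each) was used as deposited by the authors, exported from BeadStudio per the labels. It shows no background subtraction and no normalization between arrays. The authors' processed intensity table served as an alternative. Background was corrected with normexp (offset 16) and arrays were quantile-normalized and put on a log2 scale in limma 3.58.1 under R 4.3.3. Probes were kept where the normalized, uncorrected signal was over 100 in each of the 2 arrays of some group. The platform annotation gives a single gene for 27578 probes, and 14801 probes, with 9808 genes, were kept. The brightest probe stands for a gene. limma fitted 1 coefficient per group over all 12 arrays (6 residual degrees of freedom), with Benjamini-Hochberg adjustment over 9808 genes; the script was tested on simulated data. Replicates are biological duplicates per the labels, and 2 per group limit the precision. Same-numbered arrays deviated together (correlation 0.204 to 0.42 in all 15 pairs of groups), so the numbers, taken from the labels, were treated as pairs in an alternative with a replicate block.

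Values in every array were given for the 12 genes called with CDDP in siCtl cells, for every gene called in an siRNA comparison, and for the 2 of smallest p where none was called. Other lists name at most 3 called genes. The members and lists were chosen with earlier results of these data known. Promoters and lengths come from RefSeq tables (GRCh38.p14). Alternatives changed the background correction, scaling, value table, filter, probe choice, arrays in the fit and block, and left out each array.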

Additional observations from a re-analysis of the deposited data

How the results depend on the processing

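Of 40 calls among these genes, 13 were kept under all alternatives, and the 840 values recomputed for the 40 calls gave 737 on the same side of the threshold, 103 no longer called and 0 of opposite sign. With 1 array left out, the genes called lower with CDDP numbered 6 to 10 in siSMRT, 3 to 10 in siNCoR and 5 to 10 in siCtl cells, and those called higher 1 to 3, 0 to 1 and 1 to 3. Against siCtl, leaving out arrays gave 0 to 2 lower and 0 to 2 higher for siSMRT in vehicle, 0 to 1 lower and 0 to 2 higher for siSMRT with CDDP, and 0 to 2 lower for siNCoR with CDDP. With the replicate block, 2 genes were called higher with CDDP in siNCoR cells (0 without it), 4 higher in siSMRT against siCtl in vehicle, 3 lower and 2 higher in siSMRT with CDDP, 2 lower in siNCoR in vehicle and 4 lower in siNCoR with CDDP, and no call was lost. Median scaling gave 1 higher call with CDDP in siSMRT cells, 0 higher in siSMRT in vehicle and 1 lower in siNCoR with CDDP. Without the filter, 1 gene was lower in siSMRT in vehicle, 2 were higher in siSMRT with CDDP and 1 was lower in siNCoR with CDDP. Fitting only the arrays compared gave 1 lower in siSMRT in vehicle and 1 lower in siNCoR with CDDP. Among the CDDP responses, limma without the filter lost KDM4A, EHMT2 and KMT5A in siCtl cells (adjusted p 0.0691, 0.0825 and 0.105). It also lost SETDB1, KMT5B and KMT5A in siNCoR (0.0758, 0.0931 and 0.118) and SUV39H1 in siSMRT cells (0.0831). With only the arrays compared, KMT5B and KMT5A were lost in siCtl (0.0574 and 0.0711) and siNCoR cells (0.0507 and 0.0870). On the siCtl arrays alone the second KMT5B probe was the brighter and stood for the gene (-0.30), so that loss is of a different probe. The authors' processed values gave 1 lower in siSMRT with CDDP. The causes were not tested. Low signal limits KDM6A, KDM4A and the 11 genes below the floor.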

Other observations

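Of the genes below the floor, 3 were called under some alternatives. EHMT1, an H3K9 methyltransferase that pairs with EHMT2, was lower with CDDP in siCtl cells without the filter (-0.52, adjusted p 0.0226). NSD1, an H3K36 methyltransferase, was called lower in siCtl cells when 1 array above the floor was enough (-0.45, adjusted p 0.0352). This probe was over the floor on siSMRT+vehicle replicate 1 alone (uncorrected signal 107). Without siSMRT+vehicle replicate 2 it passed the filter through that array, which was then the whole siSMRT+vehicle group. The CDDP differences were then -0.50 in siSMRT cells, a value biased downward by that filter, and -0.46 in siCtl cells. The second NSD1 probe, also below the floor, was higher with CDDP under each siRNA. In siCtl cells its uncorrected signal was 92.3 and 84.7 with CDDP, against 78.3 and 68.2 with vehicle, and it was not tested. KDM6B was higher in siSMRT+CDDP than in siCtl+CDDP cells without the filter (0.51, adjusted p 0.0328). The signals of these 3 genes were near background, and these calls are not among the 40.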
